A study of Rattus norvegicus with 75 samples.

Results

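The cortical collecting duct (CCD) is the stretch of renal tubule whose principal cells reabsorb sodium and water, and whose intercalated cells secrete acid or base. Its transcripts were compared between control rats at 12 and 36 h and control rats at 24 and 72 h of an experiment on lithium. The members are 26 of the 75 libraries of the series, namely all control CCD libraries. There were 3 libraries at 12 h, 3 at 36 h, 3 at 24 h and 17 at 72 h, so 6 libraries stand against 20. The rats were pathogen-free male Sprague-Dawley rats of 120 to 160 g, kept singly on 12 h of light and 12 h of dark, acclimated for 2 days, and the controls ate food without lithium for the time given. CCD segments were dissected by hand and poly(A) RNA was sequenced. Lithium rats, used below as a separate set of samples, ate food with lithium chloride at 40 mM per kg for the same times, with 2, 3, 3 and 19 CCD libraries at 12, 24, 36 and 72 h.

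The comparison rests on a 24 h cycle. The times 12 and 36 h lie 24 h apart and the times 24 and 72 h lie 48 h apart, so each pair would share an hour of the day if all rats had started at one hour. The labels give neither the starting hour nor the hour of dissection, and the term phase is used here only for these 2 pairs of times. In mammalian cells the factors Bmal1 (Arntl), Clock and Npas2 drive the repressors Per, Cry and Rev-erb (Nr1d1, Nr1d2) and the output factors Dbp and Tef, and the repressors close a loop of about a day. In the kidney this clock, together with food and adrenal hormones, is known to give sodium and potassium excretion a daily rhythm.

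Between 10902 and 11955 genes had at least 1 TPM (transcripts scaled to a fixed total per library) in a control CCD library, and mitochondrial transcripts took 8.77 to 18.4% of the TPM. The 21 principal cell markers summed to 15577 to 28854 TPM and the 21 intercalated cell markers to 12819 to 20234 TPM, so both cell types of the CCD were present in every library. Umod, a marker of the thick ascending limb, had means of 12.3 and 11.1 TPM at 12 and 24 h and 61.2 TPM at 36 h, against 25.1 to 142 TPM at 72 h. Markers of the proximal tubule, another segment, were highest at 24 h. Their 20 transcripts summed to 937 to 2851 TPM there, 135 to 750 TPM at 12 h, 147 to 279 TPM at 36 h and 80.6 to 717 TPM at 72 h, and none was at 0 in every library of a time. The 11 endothelial markers summed to 153 to 275 TPM at 36 h, 53.3 to 158 TPM at 12 h, 98.2 to 182 TPM at 24 h and 26.6 to 266 TPM at 72 h, and the 15 immune markers to 351 to 626 TPM at 36 h and 27.1 to 663 TPM at the other times. None of these markers was at 0 in every library of a time, and the part of any of them in the results was not tested. In such bulk libraries fewer cells of a type and less RNA per cell cannot be told apart.

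The 72 h libraries were not 17 like samples. On 39 genes that were either clearly high or clearly low there, they fell into 4 sets of consecutive numbers, libraries 1 to 4, 5 to 8, 9 to 12 and 13 to 17. In 19 of these 39 genes all 3 libraries of each early time took a single state, and in the rest at least 1 early time was split. The search asked for 4 libraries per state, so it could not divide an early time of 3 libraries. Each early time was treated as 1 further set, which is an assumption. The labels do not say whether a set is 1 rat or 1 preparation, and p-values over libraries measure only the spread between these libraries, which may be technical. At 12, 24 and 36 h a difference between times and a difference between sets cannot be told apart. Results are therefore also given with the sets as a block and on 1 mean per set, 7 means in all. On set means 12, 24 and 36 h have 1 mean each, so those p-values measure only the spread between the 4 sets at 72 h. The block fit uses 1 correlation within sets, 0.254, for all genes. It too sees several sets only at 72 h, so it does not allow for differences between sets at 12, 24 and 36 h. For genes whose sets differ more than most it may allow too little.

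Few genes differed between the phases. With limma on log2(TPM + 1), 256 of 12817 genes tested (2.00%) passed an adjusted p of 0.05, here termed called, 143 higher (1.12%) and 113 lower (0.882%) at 12 and 36 h. A gene was said to agree when 12 h and 36 h each lay on the same side of both 24 h and 72 h. Of the called genes 228 agreed (1.78%), 130 higher (1.01%) and 98 lower (0.765%). Over all genes tested, called or not, 3676 (28.7%) had their 4 differences in one sign, 19.1% with 12 and 36 h higher and 9.61% with them lower. The 6 libraries did not overlap the 20 for 43 genes (0.335%), lying above them for 34 (0.265%) and below them for 9 (0.0702%). With the sets as a block 72 genes (0.562%) were called, all among the 256, and 0.531% were called and agreed. On set means 2 genes (0.0156%) were called, Crb2 and Apcdd1, of which Apcdd1 agreed (0.00780%). Crb2 entered the test only through the 24 h libraries, where it was high. An unadjusted p under 0.05 was reached by 1430 genes over libraries (11.2%) and by 643 on set means (5.02%).

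Times of one phase also differed from each other. The times 72 and 24 h, of one phase, differed in 763 genes (5.95%), while 36 and 12 h, of the other, differed in 104 (0.811%). Between phases 12 h differed from 24 h in 103 genes (0.804%) and from 72 h in 674 (5.26%), and 36 h differed from 24 h in 199 (1.55%) and from 72 h in 529 (4.13%). The comparisons with the 17 libraries at 72 h gave the most calls, and the precision of that mean is higher. Among these comparisons 2 pairs share no library. The differences 12 minus 24 h and 36 minus 72 h had the same sign in 48.7% of genes, with Pearson r = -0.0039 across 12817 genes. The differences 12 minus 72 h and 36 minus 24 h had it in 43.6%, with r = -0.10. Genes are not independent replicates, and within each pair the points share no library. In the first pair 16 genes were called in both comparisons and 15 of them in the same direction, which is 14.6% of the genes called at 12 against 24 h and 2.84% of those called at 36 against 72 h. In the second pair 35 were called in both and 25 in the same direction, which is 3.71% and 12.6% of the called genes.

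**Figure D1:**
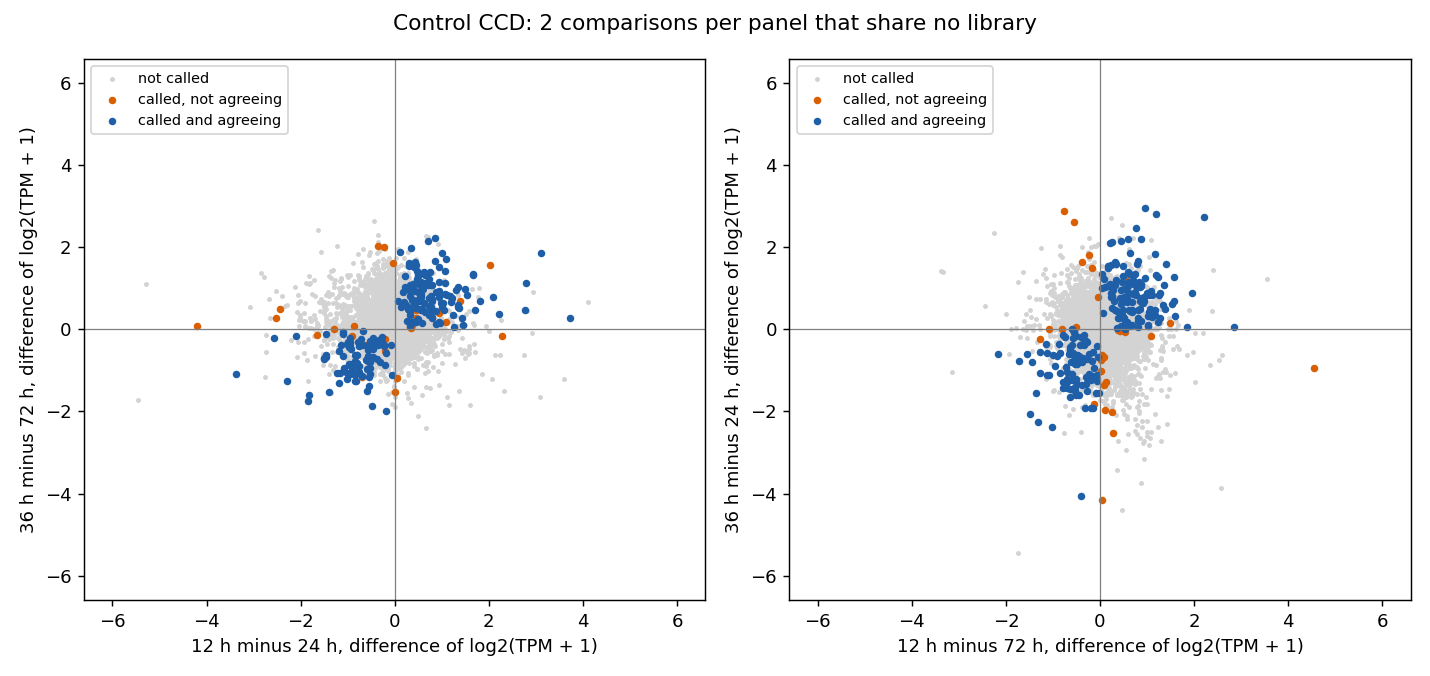
Each point is a gene in control CCD; both axes are differences of log2(TPM + 1) between 2 times, and the 2 comparisons of a panel share no library. Over all 12817 genes there is no common slope (r = -0.0039 left, -0.10 right), and the 228 genes called and agreeing lie where both axes have the same sign, as the rule for agreement requires.

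The clock genes did not divide cleanly into 2 opposite phases, since 7 of 22 differed between 24 and 72 h. Of 22 tested members of a core clock list, 2 were called higher and 5 lower, against 1.12% and 0.882% of all genes. Of these 7, 6 agreed, as did 228 of the 256 genes called, and 1.78% of all genes were called and agreed. With the sets as a block 4 of the 22 were called (0.562% of all genes), and on set means none. Called or not, 11 of the 22 had their 4 differences in one sign, against 28.7% of all genes. Between 72 and 24 h, of one phase, 7 of 22 were called (5.95% of all genes). Between 36 and 12 h none was called (22 tests by limma, smallest adjusted p = 0.243), where 0.811% of all genes were. In 13 of 22 the difference between 72 and 24 h was larger than the difference between phases, as it was for 8400 of 12817 genes. The median over the list was -0.19 against 0.04 over all genes.

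Of the activators, Arntl was near its early levels at 24 h and lower at 72 h. Arntl, which encodes Bmal1, stood at 28.9, 30.5 and 31.4 TPM at 12 h, at 34.6, 40.1 and 26.5 TPM at 36 h and at 25.8, 25.0 and 26.8 TPM at 24 h, against a lowest, median and highest of 9.45, 12.4 and 17.6 TPM at 72 h. All 9 early libraries lay above all 17 at 72 h, and the 24 h libraries reached into the range of 36 h. Its log2 difference between phases was 0.76 (SE 0.121, adjusted p = 0.00045, and 0.018 with the sets as a block), made up of 0.22 for 12 minus 24 h, 0.35 for 36 minus 24 h, 1.18 for 12 minus 72 h and 1.31 for 36 minus 72 h. Npas2, the partner of Bmal1 that can stand in for Clock, had means of 2.84, 5.58 and 2.11 TPM at 12, 36 and 24 h and 0.48 to 1.85 TPM at 72 h, with a log2 difference of 0.96 (SE 0.168, adjusted p = 0.0014, and 0.0498 with the sets as a block). It was higher at 36 than at 24 h (1.05, adjusted p = 0.04) and not called between 72 and 24 h (-0.58, adjusted p = 0.092). Clock was not called, with 0.16 (SE 0.198).

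Dbp, Nr1d1, Nr1d2 and Per3 were higher at 72 than at 24 h. Dbp, an output factor that binds the D-box, stood at 37.0, 46.5 and 33.2 TPM at 12 h, 31.0, 24.6 and 29.7 TPM at 36 h, 40.4, 41.1 and 50.1 TPM at 24 h and 70.6 to 193 TPM (median 120) at 72 h. The phase difference was -1.08 (SE 0.178, adjusted p = 0.00079), while 72 minus 24 h was 1.38 (adjusted p = 0.00037). Nr1d1, which encodes Rev-erb alpha, was not called between phases, with -0.42 (SE 0.227, adjusted p = 0.54). Its difference for 72 minus 24 h was 1.40 (adjusted p = 0.003), with means of 20.5, 20.9 and 17.1 TPM at 12, 36 and 24 h and a median of 42.4 TPM at 72 h. Per3, a period gene, had 22.1, 18.8 and 22.0 TPM at 12, 36 and 24 h and 29.2 to 94.4 TPM at 72 h, so it was called lower (-0.76, adjusted p = 0.026) without agreeing.

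Per2 and Tef did follow the phases. Per2, the period gene that glucocorticoids and the clock both act on, stood at 7.11, 7.58 and 8.80 TPM at 12 h and 6.95, 4.97 and 5.57 TPM at 36 h, against 14.2, 15.3 and 16.4 TPM at 24 h and 5.87 to 23.1 TPM (median 13.2) at 72 h. The 24 h libraries were all above the 6 of the other phase, and the 72 h range overlapped them at its low end. The phase difference was -0.98 (SE 0.205, adjusted p = 0.007, and 0.052 with the sets as a block). Tef, an output factor of the same family as Dbp, stood at 8.46, 7.78 and 8.92 TPM at 12 h, 9.55, 8.87 and 9.68 TPM at 36 h, 12.7, 15.6 and 14.7 TPM at 24 h and 11.1 to 32.8 TPM at 72 h. It was the only core clock gene of the 22 whose 6 libraries all lay below all 20, against 0.0702% of all genes. The phase difference of Tef was -0.92 (SE 0.168, adjusted p = 0.002, and 0.018 with the sets as a block).

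Most other clock genes were not called. These ranged from -0.53 for Nr1d2 to 0.73 for Timeless, with Ciart, Per1, Cry1, Cry2, Rora, Nfil3, Bhlhe40, Csnk1d, Csnk1e and Fbxl21 in between. Bhlhe40, a repressor that binds the E-box, was highest at 24 h with a mean of 72.9 TPM against 51.1 and 44.8 TPM at 12 and 36 h and a median of 38.1 TPM at 72 h.

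**Figure D2:**
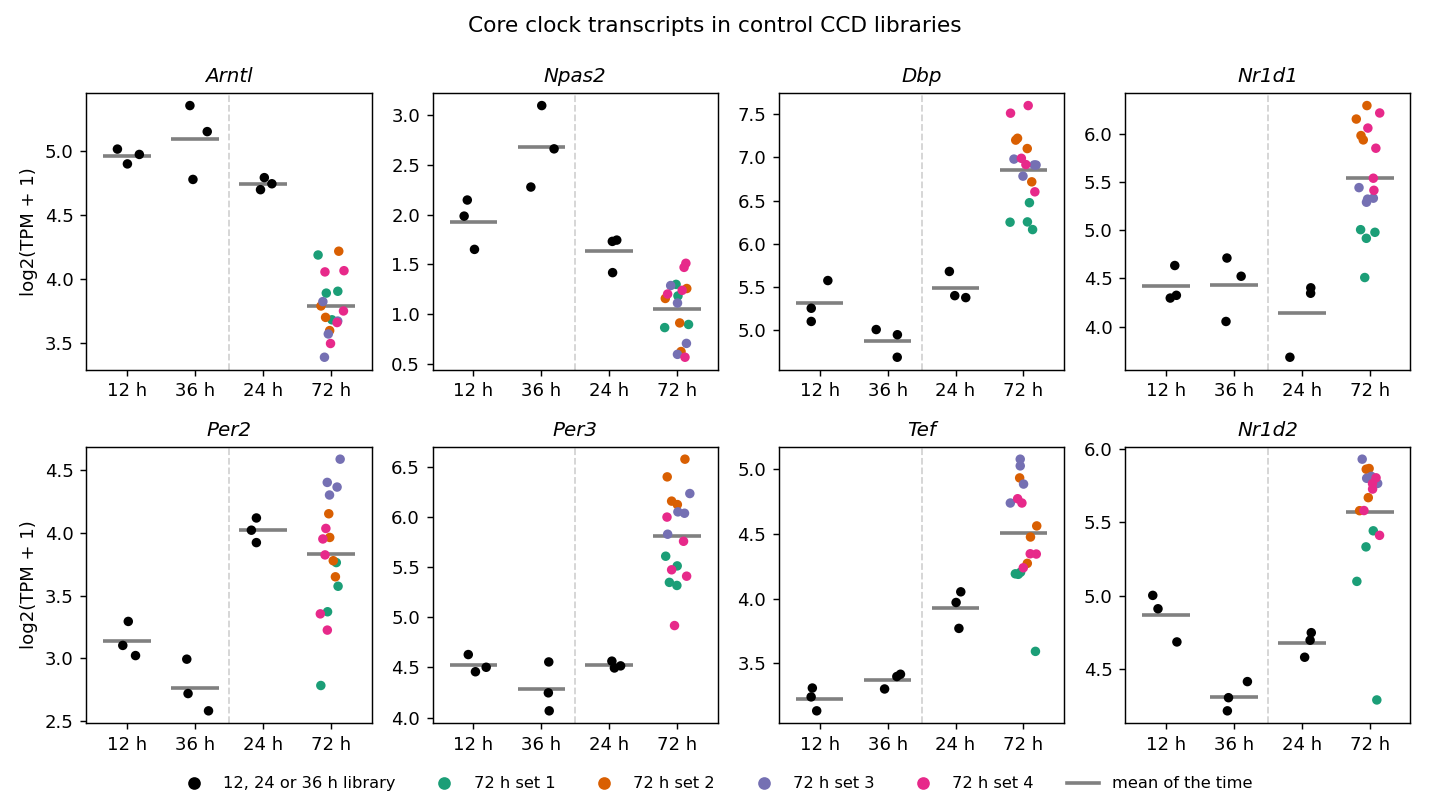
The y axis is log2(TPM + 1) of 8 clock transcripts, and the x axis gives the 4 times of control CCD with the 2 phases divided by a dashed line; points are libraries, coloured by set at 72 h, and grey bars are means. For Arntl, Dbp, Nr1d1 and Per3 the 24 h libraries lie near those of 12 and 36 h, whereas for Per2 and Tef they lie above them.

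The stretch before the start of 3 genes that were lower at 12 and 36 h and of 1 that was higher is shown, because each holds a clock motif. Sequences are from RefSeq (GRCr8, while the TPM were made on Rnor_6.0), 5′ to 3′ on the gene's strand, the 250 bases before the annotated start. They cover chr9:99496994-99497243 on the minus strand (Per2), chr7:115206577-115206826 on the plus strand (Tef), chr4:124522765-124523014 on the plus strand (Klf15, a factor described below) and chr17:13530352-13530601 on the minus strand (Gadd45g, below). Capitals mark a D-box (TTATGTAA) in Per2 and the E-box CACGTG in the others.
Per2: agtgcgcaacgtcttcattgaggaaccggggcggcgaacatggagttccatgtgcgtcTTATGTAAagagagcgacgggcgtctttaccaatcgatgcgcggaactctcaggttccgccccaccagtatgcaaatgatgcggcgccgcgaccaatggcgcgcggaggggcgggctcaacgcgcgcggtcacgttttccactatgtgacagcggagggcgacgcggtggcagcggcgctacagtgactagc
Tef: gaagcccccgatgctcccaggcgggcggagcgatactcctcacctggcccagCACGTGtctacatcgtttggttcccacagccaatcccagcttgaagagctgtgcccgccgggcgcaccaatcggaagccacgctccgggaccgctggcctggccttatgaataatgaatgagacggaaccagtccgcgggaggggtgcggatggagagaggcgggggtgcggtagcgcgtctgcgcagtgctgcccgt
Klf15: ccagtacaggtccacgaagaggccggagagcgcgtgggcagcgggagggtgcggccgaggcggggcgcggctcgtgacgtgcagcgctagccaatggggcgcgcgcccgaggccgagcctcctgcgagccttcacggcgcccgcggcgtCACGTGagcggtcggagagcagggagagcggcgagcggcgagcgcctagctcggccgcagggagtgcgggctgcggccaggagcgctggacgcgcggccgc
Gadd45g: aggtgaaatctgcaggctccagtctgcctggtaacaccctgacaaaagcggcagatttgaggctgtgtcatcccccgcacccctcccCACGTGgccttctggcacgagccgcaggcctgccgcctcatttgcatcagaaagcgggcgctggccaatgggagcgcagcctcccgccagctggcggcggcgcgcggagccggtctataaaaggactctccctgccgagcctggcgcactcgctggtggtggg
The motifs start at positions -192, -198, -101 and -163 from the start. Windows of 250 bases before to 50 after the start were searched on both strands for the E-box (CACGTG), the D-box (TTATGTAA or TTACGTAA), the cAMP element (TGACGTCA), and by name for the Ror element, a full glucocorticoid element and the heat shock element. The E-box was in 6.42% of 33469 promoters, the D-box in 1.01% and the cAMP element in 1.83%. A promoter was on hand for 17 of the 22 clock genes, and 4 (Ciart, Nr1d1, Tef, Bhlhe40) held the E-box. Among the genes of the next paragraphs the E-box was in 1 of 9 higher (Gadd45g) and 1 of 11 lower ones (Klf15), and Ints7 held the cAMP element. No window of these genes held the Ror, glucocorticoid or heat shock element, whose shares over all promoters were 0.356%, 0.0149% and 0.798%. A match is a description of these letters only.

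Of the called and agreeing genes with at least 5 TPM in the higher phase, the 12 higher and the 12 lower ones with the largest value for the smallest of their 4 differences between times are described next. Apcdd1 had the largest difference of the 12 higher ones. It encodes a membrane inhibitor of Wnt signalling, and it had 105, 93.5 and 105 TPM at 12 h and 71.8, 87.1 and 77.4 TPM at 36 h. At 24 h it had 8.66, 12.9 and 11.6 TPM and at 72 h 15.5 to 32.3 TPM (median 20.9). The lowest of the 6 was over 2 times the highest of the 20, and the 4 sets at 72 h had like means of 23.4, 22.8, 21.7 and 18.2 TPM. The log2 difference was 2.48 (SE 0.129, adjusted p = 2.2e-13), and it was the only agreeing gene called on set means (adjusted p = 0.007). That last p-value measures only the spread between the 4 sets at 72 h.

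Gadd45g and Tesc were also higher in every library of the phase. Gadd45g, a growth arrest gene, had 872, 1077 and 1030 TPM at 12 h and 1411, 1236 and 935 TPM at 36 h, against 525, 338 and 327 TPM at 24 h and 381 to 832 TPM (median 616) at 72 h, a difference of 1.19 (SE 0.157, adjusted p = 5.2e-05). Tesc, which encodes the calcium-binding protein tescalcin, had 21.9, 20.5 and 20.4 TPM at 12 h and 24.1, 23.8 and 19.5 TPM at 36 h, against 12.4, 12.2 and 10.7 TPM at 24 h and 7.49 to 14.3 TPM (median 9.75) at 72 h. Its difference was 0.93 (SE 0.128, adjusted p = 7.3e-05), and the 4 differences between times spanned only 0.78 to 1.08. Both were also called with the sets as a block (adjusted p = 0.0018 and 0.0016).

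Hyal1, a lysosomal hyaluronidase, Grik2, a glutamate receptor subunit, and Ints7, of the Integrator complex, did not overlap between the phases either. Hyal1 had means of 111 and 103 TPM at 12 and 36 h, 55.1 TPM at 24 h and at most 51.1 TPM at 72 h, where its set means ran from 16.4 to 44.7 TPM. With the sets as a block none of the 3 was called (adjusted p = 0.067, 0.085 and 0.285). The other high genes included Mfsd4, a member of a transporter superfamily (1.49), Ddit4, an inhibitor of mTORC1 (1.43), Camkk1, a calcium-dependent kinase kinase (1.25), the stress factor Atf3 (1.54) and the class I gene RT1-CE1 (1.96), as log2 differences between phases. Of these 5 genes Ddit4 was called with the sets as a block (adjusted p = 0.044), and Mfsd4 (0.0503), Camkk1 (0.256), Atf3 (0.271) and RT1-CE1 (0.062) were not. RT1-CE1 was also one of the 39 genes with 2 states at 72 h, with set means of 21.8, 3.54, 25.9 and 4.17 TPM, and close RT1 paralogs share reads. In 2 of the 4 sets its mean was thus near the level at 12 and 36 h (17.1 to 23.7 TPM).

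Among the genes lower at 12 and 36 h, Mgst1, Tstd1 and Pttg1 did not overlap between the phases. Mgst1, a microsomal glutathione transferase, had 18.4, 21.0 and 20.4 TPM at 12 h and 12.8, 9.64 and 17.9 TPM at 36 h, against 68.1, 71.7 and 78.9 TPM at 24 h and 24.0 to 98.5 TPM (median 36.3) at 72 h. The difference was -1.71 (SE 0.263, adjusted p = 0.00032). Proximal tubule markers were also highest at 24 h (above), and their part in the 24 h values was not tested. Set 2 at 72 h, with a mean of 86.4 TPM, lay far above the other 3 (32.3 to 35.7 TPM). Tstd1, of the thiosulfate sulfurtransferase family, was steadier, with 46.3, 56.3 and 44.6 TPM at 12 h, 55.5, 40.8 and 61.5 TPM at 36 h, 104, 90.0 and 96.3 TPM at 24 h and 67.2 to 149 TPM at 72 h. Its 4 differences ran from -0.97 to -0.87 (phase difference -0.92, SE 0.131, adjusted p = 0.00011). Both were also called with the sets as a block (adjusted p = 0.0013 and 0.0031).

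Klf15 and Usp2, of the 12 lower genes, and Zbtb16, named from the glucocorticoid list, were lower as well; all are known targets of glucocorticoids or the clock. Per2, described above, is also one of the 12. Klf15, a transcription factor, had 19.7, 17.5 and 18.9 TPM at 12 h and 18.6, 22.2 and 16.5 TPM at 36 h, against 56.3, 48.7 and 54.6 TPM at 24 h and 18.9 to 64.7 TPM (median 31.5) at 72 h, where set 1 had a mean of 21.3 TPM. The 24 h libraries were all high, while the 72 h range began at the level of the other phase (difference -1.07, SE 0.198, adjusted p = 0.0022). Usp2, a deubiquitinase, had means of 43.2 and 38.5 TPM at 12 and 36 h, 80.1 TPM at 24 h and a median of 71.0 TPM at 72 h (-0.86, SE 0.158, adjusted p = 0.002). Zbtb16, which encodes the factor PLZF, had 0.08, 1.01 and 0.55 TPM at 12 h and 0, 0.16 and 0.22 TPM at 36 h, against 5.02, 4.60 and 3.68 TPM at 24 h and 0.24 to 6.72 TPM at 72 h, where set 3 had a mean of 0.65 TPM. Its difference was -1.79 (SE 0.336, adjusted p = 0.0024). All 3 were also called with the sets as a block (adjusted p = 0.018, 0.012 and 0.014) and none on set means.

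The other low genes were H3f3c, a histone H3.3 gene (-1.77), Knstrn, of the mitotic spindle (-1.12), Aspa, aspartoacylase (-1.10), Kif23, a kinesin of cell division (-1.05), the kinase-associated phosphatase Cdkn3 (-0.98), Pttg1, which encodes securin (-0.95), and the glypican Gpc3 (-0.81), as log2 differences between phases. H3f3c had 2 states at 72 h, with set means of 38.9, 7.94, 6.27 and 36.4 TPM, and in 2 sets its mean was near the level at 12 and 36 h (4.76 to 7.15 TPM). Of these 7 genes Kif23 and Pttg1 were called with the sets as a block (adjusted p = 0.017 and 0.032), and H3f3c (0.067), Knstrn (0.096), Aspa (0.308), Cdkn3 (0.132) and Gpc3 (0.051) were not.

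**Figure D3:**
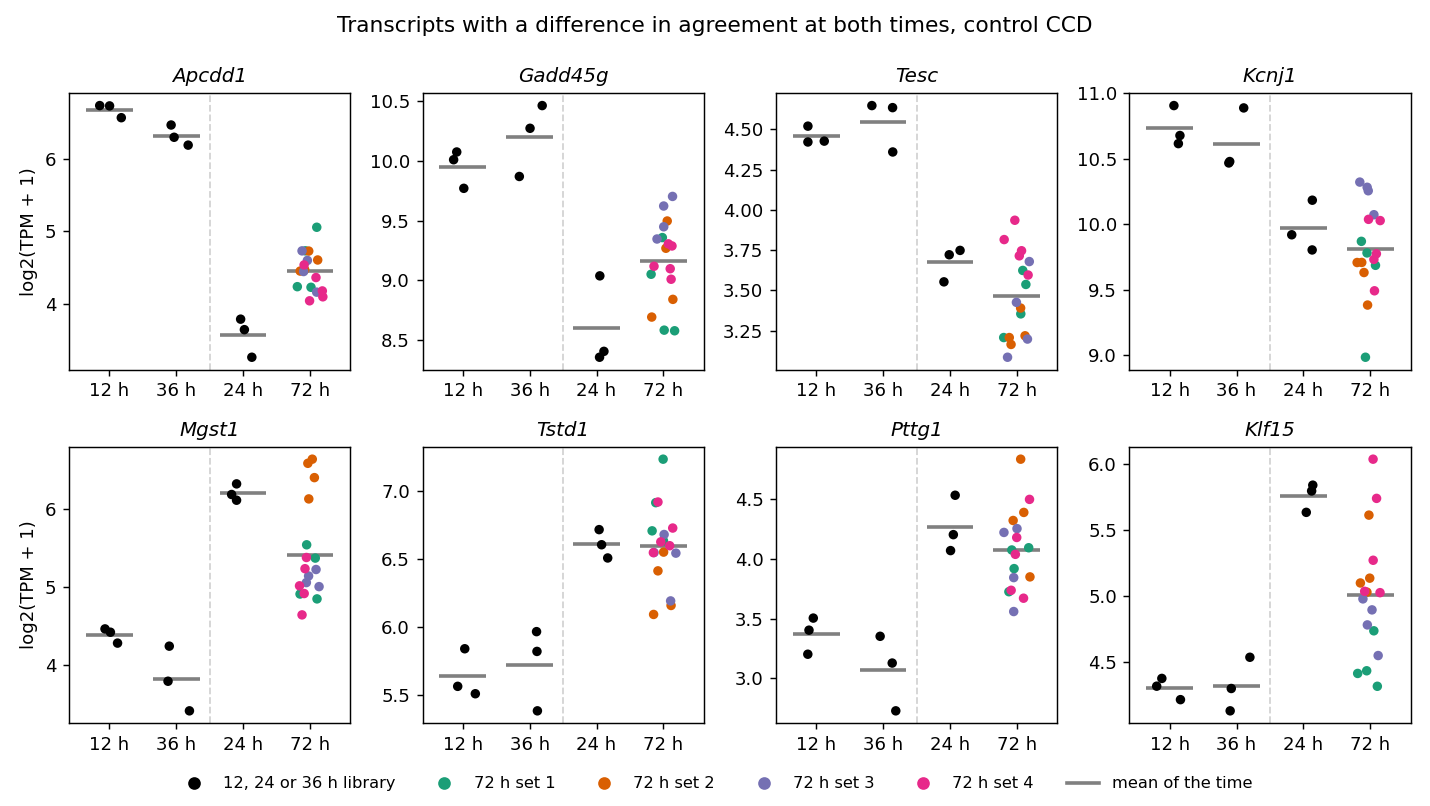
The y axis is log2(TPM + 1) of 8 transcripts and the x axis the 4 times of control CCD; points are libraries, coloured by set at 72 h, and grey bars are means. Apcdd1, Gadd45g, Tesc and Kcnj1 are higher and Mgst1, Tstd1 and Pttg1 lower in all 6 libraries at 12 and 36 h, while the 72 h libraries of Klf15 reach down to the level of 12 and 36 h.

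Sterol synthesis genes were higher at 12 and 36 h. Of 23 tested members of a sterol and fatty acid synthesis list, 11 were called higher and agreed and none was called lower, against 1.01% of all genes called and agreeing in that direction. Among them were Insig1, Cyp51, Idi1, Hmgcs1, Fdps, Fdft1, Msmo1, Sqle and Fasn. For 10 of the 23 all 6 libraries lay above all 20, against 0.265% of all genes, among them Acly and Stard4, which were not called. The median difference over the list was 0.51 against 0.04 over all genes, and it was positive in each of the 4 comparisons between times (0.39, 0.70, 0.28 and 0.64 for 12 minus 24, 12 minus 72, 36 minus 24 and 36 minus 72 h). The list's median for 72 minus 24 h was -0.36, so by this measure 24 h lay between the other phase and 72 h.

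Insig1, the sensor that holds the sterol factor SREBP in the endoplasmic reticulum, had means of 68.0 and 67.4 TPM at 12 and 36 h, 48.2 TPM at 24 h and 15.8 to 31.6 TPM at 72 h (0.93, SE 0.125, adjusted p = 6.1e-05). Cyp51, lanosterol demethylase, had 67.0, 67.7 and 69.1 TPM at 12 h and 52.4, 54.0 and 50.5 TPM at 36 h, against 38.0, 37.2 and 40.6 TPM at 24 h and 25.8 to 41.2 TPM at 72 h (0.74, SE 0.1, adjusted p = 6.3e-05). Idi1, isopentenyl diphosphate isomerase, was lowest at 24 h (13.6 to 15.7 TPM) and its 36 h libraries overlapped the 72 h range (0.80, SE 0.129, adjusted p = 0.00067). Of the 23, 5 were called with the sets as a block, against 0.562% of all genes, among them these 3 and Fdps, and none on set means. The regulators Srebf1 and Srebf2 were not called, with 0.21 (SE 0.207) and 0.19 (SE 0.124).

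Immediate early genes were higher too, mainly at 36 h. Of 19 tested members 9 were called higher and 8 of them agreed, and none was called lower, against 1.12% of all genes called higher and 1.01% called higher and agreeing. The list's median was 0.66, with 0.47 for 12 minus 24 h, 0.22 for 12 minus 72 h, 1.08 for 36 minus 24 h and 0.91 for 36 minus 72 h, and 0.82 for 36 minus 12 h. Fos, a subunit of AP-1, had 2025, 2281 and 2517 TPM at 12 h and 4805, 4308 and 3066 TPM at 36 h, against 2229, 1376 and 1369 TPM at 24 h and 1132 to 2442 TPM at 72 h. The 12 h libraries lay within the upper range of the other phase or just above it, and the 36 h libraries above all of it (difference 0.89, SE 0.153, adjusted p = 0.0011). Klf6, an early response factor, had means of 245 and 301 TPM at 12 and 36 h, 136 TPM at 24 h and a median of 159 TPM at 72 h (0.89, SE 0.162, adjusted p = 0.0019). Junb (0.66) and Egr1 (0.90) were called too, as were Jun, Atf3, Zfp36 and Ier5. With the sets as a block Fos, Junb and Klf6 were called (3 of 19, against 0.562% of all genes). For none of the 19 did all 6 libraries lie above all 20, against 0.265% of all genes. The endothelial and immune markers were also highest at 36 h, with list medians for 36 minus 12 h of 1.03 and 0.76, and none of them was called between the phases by limma. Their part in the early genes was not tested.

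**Figure D4:**
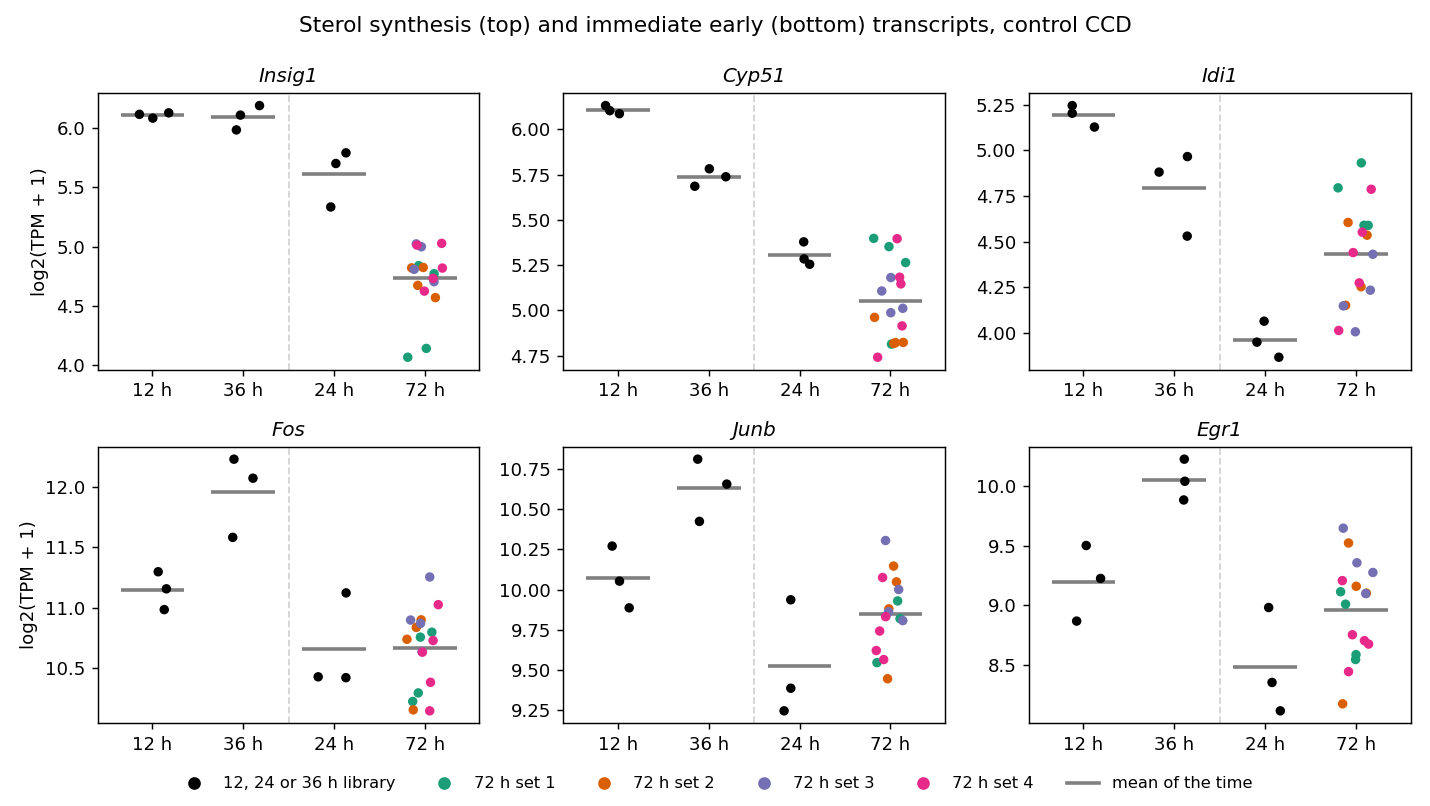
The y axis is log2(TPM + 1) of 3 sterol synthesis transcripts (top) and 3 immediate early transcripts (bottom), and the x axis the 4 times of control CCD; points are libraries, coloured by set at 72 h, and grey bars are means. Insig1 and Cyp51 are higher in all 6 libraries at 12 and 36 h, whereas Fos, Junb and Egr1 are highest at 36 h.

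In the cell cycle list 5 members were called over libraries and none with the sets as a block. Of 34 tested, 4 were called lower and agreed (0.765% of all genes), Ube2c, Cenpf, Cdkn3 and Cdc20, which act in mitosis, and 1 was called higher and agreed (1.01% of all genes), Mcm6, a subunit of the replication helicase. Ube2c, the ubiquitin carrier of the anaphase-promoting complex, had 46.3, 45.9 and 56.3 TPM at 12 h and 26.5, 26.2 and 26.3 TPM at 36 h, against 98.9, 116 and 90.4 TPM at 24 h and 32.1 to 122 TPM (median 54.4) at 72 h. It was lowest at 36 h and highest at 24 h, and the 12 h libraries lay inside the 72 h range (-1.12, SE 0.243, adjusted p = 0.0099). Mcm6 had means of 44.8 and 31.0 TPM at 12 and 36 h, 21.6 TPM at 24 h and 13.8 to 29.7 TPM at 72 h (0.77, SE 0.153, adjusted p = 0.0042). The list's median was -0.40. The smallest adjusted p with the sets as a block were 0.051 for Cenpf and 0.052 for Mcm6.

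Of the 21 principal cell markers 2 were called higher and 1 lower, all in agreement, against 1.78% of all genes. Kcnj1, which encodes the potassium channel ROMK of principal cells, was the only one of the 21 for which all 6 libraries lay above all 20. Over all genes this held for 0.265%. It had 1566, 1635 and 1916 TPM at 12 h and 1425, 1892 and 1414 TPM at 36 h, against 1161, 966 and 892 TPM at 24 h and 505 to 1278 TPM at 72 h (0.78, SE 0.149, adjusted p = 0.0028, and 0.035 with the sets as a block). Aqp4, a basolateral water channel, was called higher (0.74, SE 0.174, adjusted p = 0.019) and Kcne1, a potassium channel subunit, lower (-0.58, SE 0.147, adjusted p = 0.032), and neither was called with the sets as a block (adjusted p = 0.239 and 0.337). The vasopressin-regulated water channel Aqp2 was not called, with means of 6626 and 5854 TPM at 12 and 36 h, 5902 TPM at 24 h and 3434 to 7328 TPM at 72 h (0.23, SE 0.149, adjusted p = 0.66). Neither were Aqp3 (0.48, SE 0.184), the vasopressin receptor Avpr2 (0.08, SE 0.131), or the sodium channel subunits Scnn1a (-0.38, SE 0.195), Scnn1b (0.18, SE 0.124) and Scnn1g (0.35, SE 0.127). The sodium pump regulator Fxyd4 (0.03), the anion exchangers Slc4a1 (0.25) and Slc26a4 (-0.44) of intercalated cells, and the thick limb genes Umod (0.05) and Slc12a1 (-0.30) were not called.

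Steroid response genes were called in both directions. Of 24 tested members of a glucocorticoid and mineralocorticoid list, 3 were called higher (Sgk1, Ddit4, Cited2) and 3 lower (Tsc22d3, Zbtb16, Usp2), all in agreement, against 1.78% of all genes called and agreeing, and the median was 0.02. Of these 6, 4 were called with the sets as a block (0.562% of all genes), and Tsc22d3 (adjusted p = 0.069) and Sgk1 (0.169) were not. Tsc22d3, which encodes the glucocorticoid-induced protein GILZ, had means of 57.9 and 52.9 TPM at 12 and 36 h, 81.5 TPM at 24 h and 60.1 to 109 TPM at 72 h (-0.59, SE 0.116, adjusted p = 0.0038). Sgk1, a kinase that raises sodium channel number, was highest at 12 h, with 771, 785 and 696 TPM, and lowest at 24 h, with 361, 199 and 286 TPM. Its 36 h libraries (409 to 585 TPM) lay inside the 72 h range of 219 to 753 TPM, and its call was narrow (0.78, SE 0.212, adjusted p = 0.049). Of 29 listed genes linked to the clock in kidney or other tissues, 24 were tested, with a median of 0.04. Of these, 3 were called higher (Rasd1, Sgk1, Avpr1a) and 4 lower (Usp2, Klf15, Tsc22d3, Herpud1), all in agreement. Over all genes 1.01% were called higher and agreed, and 0.765% were called lower and agreed. With the sets as a block 3 of the 7 were called, against 0.562% of all genes. Rasd1, a small GTPase, had 191 to 196 TPM at 12 h, 277 to 306 TPM at 36 h, 60.9 to 77.4 TPM at 24 h and 103 to 263 TPM at 72 h (1.19, SE 0.129, adjusted p = 1.9e-06).

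In the other lists at most 4 members were called, against 1.12% of all genes called higher and 0.882% called lower. With the sets as a block 1 member was called in each of the vasopressin and cAMP, sodium and potassium, intercalated cell and thick ascending limb lists, 2 in glycolysis, and none in the other lists of this paragraph. Over all genes 0.562% were called in that fit. Intercalated cell genes had 1 of 20 lower (Atp6v1g3, -0.56), thick ascending limb genes 1 of 10 higher (Kcnj1), fibroblast genes 1 of 4 higher (Col3a1, 0.94), tubular injury genes 1 of 15 lower (Anxa2, -0.35), and regulators of sodium and potassium transport 2 of 26 higher (Sgk1, Kcnj1) and 1 lower (Tsc22d3). Glycolysis had 3 of 15 higher, 2 in agreement (Gapdh 0.36, Ldha 0.39), the vasopressin and cAMP list 4 of 23 higher (Elf3, Aqp4, Pde4d, Avpr1a), and NF-kB genes 2 of 22 higher, 1 in agreement (Nfkbia). The unfolded protein response had 1 higher (Atf4) and 1 lower (Herpud1) of 23, and oxidative phosphorylation 1 higher of 33 (Ndufv1). Heat shock, fatty acid oxidation, ribosome biogenesis, osmolyte, interferon, connecting tubule, endothelial and immune genes had none called by limma between the phases. Pck1, of the proximal tubule list, was called lower (-2.23, SE 0.512, adjusted p = 0.016, and 0.249 with the sets as a block), with 119.7, 97.6 and 314 TPM at 24 h, 3.55 to 30.3 TPM at 12 and 36 h and 4.86 to 76.9 TPM at 72 h. Of the 17 tested members of that list 2 were called lower, 1 in agreement, and none higher. The list, Pck1 included, had a median of -2.38 for 36 minus 24 h, and the part of proximal tubule in the Pck1 values was not tested.

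Some called genes followed 1 time only. Crb2, of the Crumbs polarity family, had 22.6, 14.7 and 17.8 TPM at 24 h and at most 0.09 TPM in each of the other 23 libraries. Its phase difference was -2.05 (SE 0.106). It passed the filter of 1 TPM in 3 libraries only through the 24 h libraries, so its call is no support for a difference. Scin, an actin-severing protein, was low at 24 h only, with 0.76, 1.66 and 2.53 TPM against 10.2 to 34.6 TPM elsewhere. Irf1 (0.89) and Shisa2 (0.83) were also among the 6 largest calls without agreement.

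The same contrast was computed in lithium rats, whose libraries the control comparison did not use. Lithium itself acts over time, so there the phase and the time course of lithium cannot be told apart. Of 13520 genes tested 162 (1.20%) were called there, 89 higher and 73 lower. Of 225 control phase genes tested in both, 146 (64.9%) had the same sign in lithium, against 60.8% of 12639 genes tested in both. The values correlated across the 225 genes with r = 0.40 and across the 12639 with r = 0.18. Of the 225, 30 were called in the same direction, which is 13.3% of them and 18.5% of the 162 genes called in lithium, and 1, Rfk, in the opposite one. All 4 differences of lithium groups were of one sign for 22 of the 30, 21 of them higher, and 0.925% of all genes were called with 4 differences of one sign.

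Among the 12 higher genes, 3 were called higher in lithium as well. Atf3 had means of 418 and 721 TPM at 12 and 36 h of lithium against 92.4 and 89.1 TPM at 24 and 72 h (2.67, SE 0.432, adjusted p = 0.00033), Gadd45g 534 and 469 against 190 and 228 TPM (1.29, SE 0.21, adjusted p = 0.00035) and Ddit4 61.8 and 44.9 against 16.1 and 11.3 TPM (1.89, SE 0.189, adjusted p = 1e-07). Of the 19 immediate early genes 14 were called higher in lithium and none lower, against 0.658% and 0.540% of all genes. Of the 23 sterol and fatty acid synthesis genes 1 was called higher in lithium and none lower. The median of that list was 0.17 in lithium, against 0.51 in control. Of the 12 lower genes Pttg1, Knstrn and Cdkn3 were called lower in lithium too, but their lithium values were low at 12 h only. Pttg1 had a mean of 8.84 TPM in the 2 libraries at 12 h and 47.9, 44.1 and 46.3 TPM at 36, 24 and 72 h. The clock list had no call in lithium among 22 genes, with a median of 0.18.

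Other differences were not the same in lithium rats. Apcdd1 had means of 16.8, 22.4, 21.3 and 21.1 TPM at 12, 36, 24 and 72 h of lithium, a phase difference of -0.12 (SE 0.154), and the difference from control was -2.60 (adjusted p = 2.4e-13). The phase difference also differed between lithium and control for Per2 and Ints7. Of the 225 control phase genes 38 were called in this way, against 0.837% of all 14105 genes tested. The 225 genes were chosen by the control values, which also enter this difference.

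**Figure D5:**
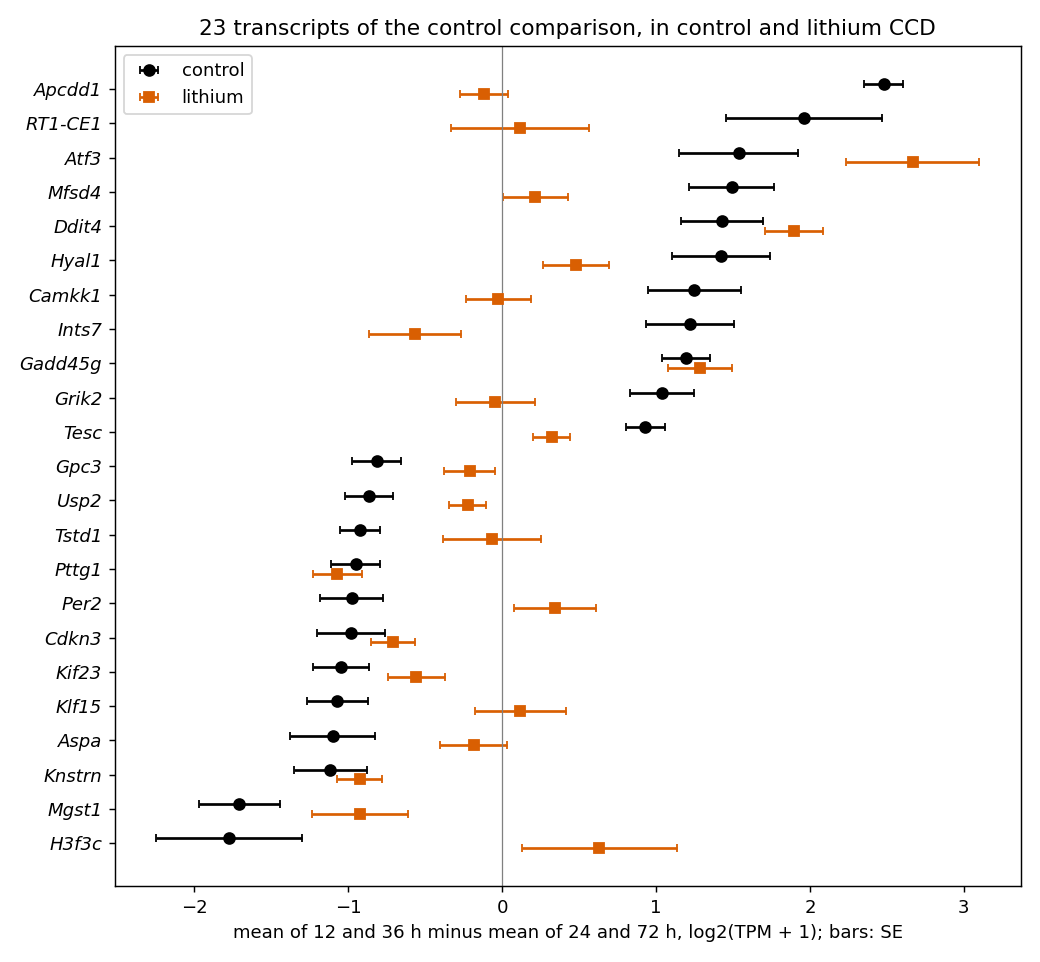
Points are the difference between phases, in log2(TPM + 1), of 23 of the 24 leading genes (12 higher, 12 lower) of control CCD, with SE bars, in control (black) and lithium (orange); the control values chose these genes. Atf3, Ddit4 and Gadd45g are as high in lithium, whereas Apcdd1, at 2.48 in control, is at -0.12.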

How the data were processed

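Poly(A) RNA of hand-dissected CCD was made into libraries, and the authors deposited TPM per gene and library. Per the submitters' processing notes the tools included STAR 2.5.2b and RSEM 1.2.31, with the build Rnor_6.0. TPM keep no read depth, so counting error is unknown. Here, log2(TPM + 1) of genes with at least 1 TPM in 3 control libraries was fitted by limma 3.58.1 (R 4.3.3) with 1 mean per time and a trended variance. The fits of lithium and of lithium minus control took genes with at least 1 TPM in 2 of their libraries. The phase contrast weights the 4 times equally, and p-values are two-sided and adjusted by Benjamini-Hochberg over all genes tested. Figures were drawn with matplotlib 3.10.9 and tables with pandas 2.3.3 under Python 3.11.15, and the fit was tested on simulated data. No 2 libraries had identical values.

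Sets of libraries were found within each 72 h group from genes with a gap of at least 0.8 (log2) between 2 states of at least 4 libraries each. This procedure was settled after the data had been seen, in several versions, and differs from the one first planned, which covered all 75 libraries. The members and gene lists were chosen with earlier results of these data known. Genes named are the core clock list, 11 transport and segment genes, the 12 higher and 12 lower genes described in the text, up to 4 members per list with the smallest p among those called and agreeing, and the 6 largest calls that did not agree. Lithium values are given for the clock list and the 24 leading genes, and outside this rule for the immediate early and sterol lists as a whole. Names given beyond these were chosen after their values were seen. Of 532 listed symbols 520 matched by symbol, 1 by a synonym, and 11 were not matched. Some genes that the rule names are not reported here.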

Additional observations from a re-analysis of the deposited data

Results flagged for a closer look

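In 3 of the clock and leading genes described here the difference between the phases was not the same in lithium and control rats by limma's test of the difference itself. For Apcdd1 the lithium minus control value was -2.595 on the log2 scale (adjusted p = 2.36e-13), with lithium means of 16.8 to 22.4 TPM at the 4 times. For Ints7 it was -1.788 (adjusted p = 0.0219), and the lithium mean at 24 h, 53.7 TPM, was above those of the other times, 10.8 to 16.9 TPM. Per2 gave 1.32 (adjusted p = 0.0411), Per2 having lithium means of 17.9, 30.9, 21.4 and 16.3 TPM at 12, 36, 24 and 72 h. With 2 lithium libraries at 12 h, these differences rest on few samples at that time. The control values that enter them also chose the leading genes.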

How the results depend on the processing

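Counts depended strongly on what is taken as a replicate. With the sets as a block 45 genes were called higher and 27 lower (42 and 26 agreeing), and 23, 86, 9 and 100 genes differed for 12 against 24 h, 36 against 72 h, 36 against 12 h and 72 against 24 h. On set means 1 was called higher and 1 lower (1 and 0 agreeing), and 2, 0, 0 and 13 genes differed in the same comparisons, with 28 genes for lithium and 12 for lithium minus control. Of the named genes, 66 lost their call on set means, 36 with the sets as a block and 42 without the 36 h group. Both set alternatives, and leaving out a 72 h set, were chosen in this form after seeing the data. Pooling the libraries into groups of 6 and 20 gave 229 higher (202 agreeing), quantile normalization 183 lower (155 agreeing), and leaving out set 1 at 72 h 195 lower (158 agreeing). Counts higher and lower were 602 and 405 without 24 h (594 and 398 agreeing), 371 and 411 without 72 h (365 and 399 agreeing), and 81 and 66 without 36 h (80 and 65 agreeing). Deviations of same-numbered libraries from the mean of their time correlated with r from -0.226 to 0.172 over 18 pairs. In 18 of 36 checks of a library against another time it correlated best with its own number, out of 3 candidates. Only libraries 1 to 3 of each time entered, so whether same-numbered libraries were paired was not settled. The fit with the replicate block called 426 higher (317 agreeing). The median difference of all genes, 0.0425, was 0.00558 under median-of-ratios scaling.

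Without 1 library at 12, 24 or 36 h, genes higher ranged from 77 to 114 and lower from 61 to 99 (agreeing, 73 to 106 and 60 to 83). Both counts fell by more than 1.5 times without library 2 or 3 at 12 h, 2 or 3 at 24 h, or 1 or 2 at 36 h, and the lower count also without library 1 at 12 h. The ranges were 22 to 92 for 12 against 24 h, 93 to 498 for 36 against 72 h, 22 to 98 for 36 against 12 h, 96 to 719 for 72 against 24 h, 99 to 139 for lithium and 74 to 104 for lithium minus control.

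Single genes turned direction as follows, in log2, and the cause was not tested. Without 12 h, Clock was at -0.006706 and Slc12a1 at 0.3659. Without 72 h, Clock was at -0.04049, Cry1 at -0.2, Nr1d1 at 0.2795, Rora at -0.1073, Csnk1d at -0.09368, Avpr2 at -0.06289 and Shisa2 at -0.1023. Without 36 h, Rora was at -0.03715, Fbxl21 at -0.165, Avpr2 at -0.1609, Fxyd4 at -0.3826, Slc4a1 at -0.1254 and Umod at -1.06. Without 24 h, Bhlhe40 was at 0.3879, Fxyd4 at -0.1249, Umod at -1.139 (adjusted p = 0.00725) and Scin at -0.4663. With the replicate block, Cry1 was at -0.01777, Cry2 at 0.08122, Ciart at 0.08014 and Bhlhe40 at 0.04478. Pooled, Bhlhe40 was at 0.2418, Fxyd4 at -0.07913, Umod at -0.7814 and Scin at -0.00932. Under median-of-ratios scaling Csnk1d was at -0.006975 and Fxyd4 at -0.01426. Without set 1 Csnk1d was at -0.003704, and without set 2 Fxyd4 at -0.001563. Without 1 library at 12, 24 or 36 h, Csnk1d ranged from -0.01146 to 0.07496, Fxyd4 from -0.05846 to 0.1027, Umod from -0.000671 to 0.1418 and Slc12a1 from -0.8121 to 0.02888.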
